A study of Homo sapiens with 12 samples.

Results

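The genes of the integrated stress response and its amino acid programme were followed as a set of 42 named genes, matched by symbol among the 19836 protein-coding genes of the deposited expression table. The set held 12 stress regulators, 3 secreted factors with 1 receptor, 12 enzymes of amino acid and one-carbon metabolism, 5 amino acid transporters, and 9 genes of tRNA charging and tRNA export. All 42 were found, and all 42 were among the 14049 genes whose mean over the 12 libraries reached 10 normalized counts, the minimum for testing. Poly(A)-selected RNA was sequenced from HEK293, a human embryonic kidney cell line kept in DMEM with serum. On day 1 the cells were transduced with an A197-270 plasmid or with vector; the labels do not say what A197-270 encodes. IFN-gamma (interferon gamma, a cytokine) was given on day 2 to some of the cells, and all cells were harvested on day 4. This gave 4 groups of 3 libraries: A197-270 with IFN-gamma (replicates 10 to 12), A197-270 without it (4 to 6), vector with IFN-gamma (7 to 9) and vector without it (1 to 3). The labels do not say that replicates were separate cultures, so the p-values reflect variation among these libraries that could be technical.

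The integrated stress response is the route by which cells slow protein synthesis and rewrite transcription when amino acids run short, proteins misfold, haem is lacking or viral RNA is present. Each of these stresses has a kinase that phosphorylates the translation factor eIF2; general translation then falls while the mRNA of the transcription factor ATF4 is translated more. ATF4 pairs with C/EBP and other bZIP proteins on the C/EBP-ATF response element and turns on genes that make, import and charge amino acids onto tRNA, together with regulators such as DDIT3 (CHOP), TRIB3 and CHAC1. Because ATF4 is controlled mainly through translation, its mRNA level does not report its protein level, and neither ATF4 protein nor eIF2 phosphorylation was measured here.

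The libraries held between 31417431 and 70746868 recovered reads, and the members' levels were read from them with no sample left out. Reads from the mitochondrial genome, a rough mark of library make-up, took 0.478% to 0.712% of reads in A197-270 cells with IFN-gamma and 0.546% to 0.802% in A197-270 cells without it, against 0.405% to 0.475% in vector cells with IFN-gamma and 0.355% to 0.48% in vector cells without it. These shares moved with the construct, and their part in the results was not tested. Of 5 genes that mark HEK293, NEFL, NEFM, VIM and KRT18 were at group means of 2102 or more normalized counts and PAX2 at 101 or more. These marker levels also moved: with the construct NEFL, NEFM and VIM rose by 0.78, 0.52 and 0.39 on the log2 scale with IFN-gamma and by 0.55, 0.25 and 0.32 without it, and PAX2 fell by 0.42 without it. With IFN-gamma NEFL and NEFM fell by 0.36 and 0.24 in A197-270 cells and by 0.58 and 0.51 in vector cells, where VIM also fell, by 0.15; the part of these shifts in the results was not tested. Of 6 markers of other cell types reported here, PTPRC, CD3E, LYZ, ALB and PECAM1 were at group means of at most 12.95 normalized counts, and PTPRC averaged 0 in 3 of the 4 groups. COL3A1 reached group means of up to 217.7 normalized counts. COL3A1 rose with the construct, by 0.78 ± 0.12 with IFN-gamma and 0.43 ± 0.12 without it (log2 difference ± SE), and fell with IFN-gamma in vector cells by 0.40 on that scale; its part in the results was not tested. In bulk RNA, fewer cells with a high level and less RNA per cell cannot be told apart.

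Levels differed widely between members. Per kilobase of merged exons, ATF4 itself was the highest member in vector cells without IFN-gamma, at a level of 10920.0 normalized counts per kilobase, followed by its partner and target ATF3 at 7896, the mTORC1 inhibitor DDIT4 at 5243, the serine synthesis enzyme PSAT1 at 4747 and alanyl-tRNA synthetase AARS at 4744. The lowest were the bZIP factor JDP2 at 60.4, the small chromatin-associated stress protein NUPR1 at 49.9 and the hormone FGF21 at 12 normalized counts per kilobase.

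**Figure D1:**
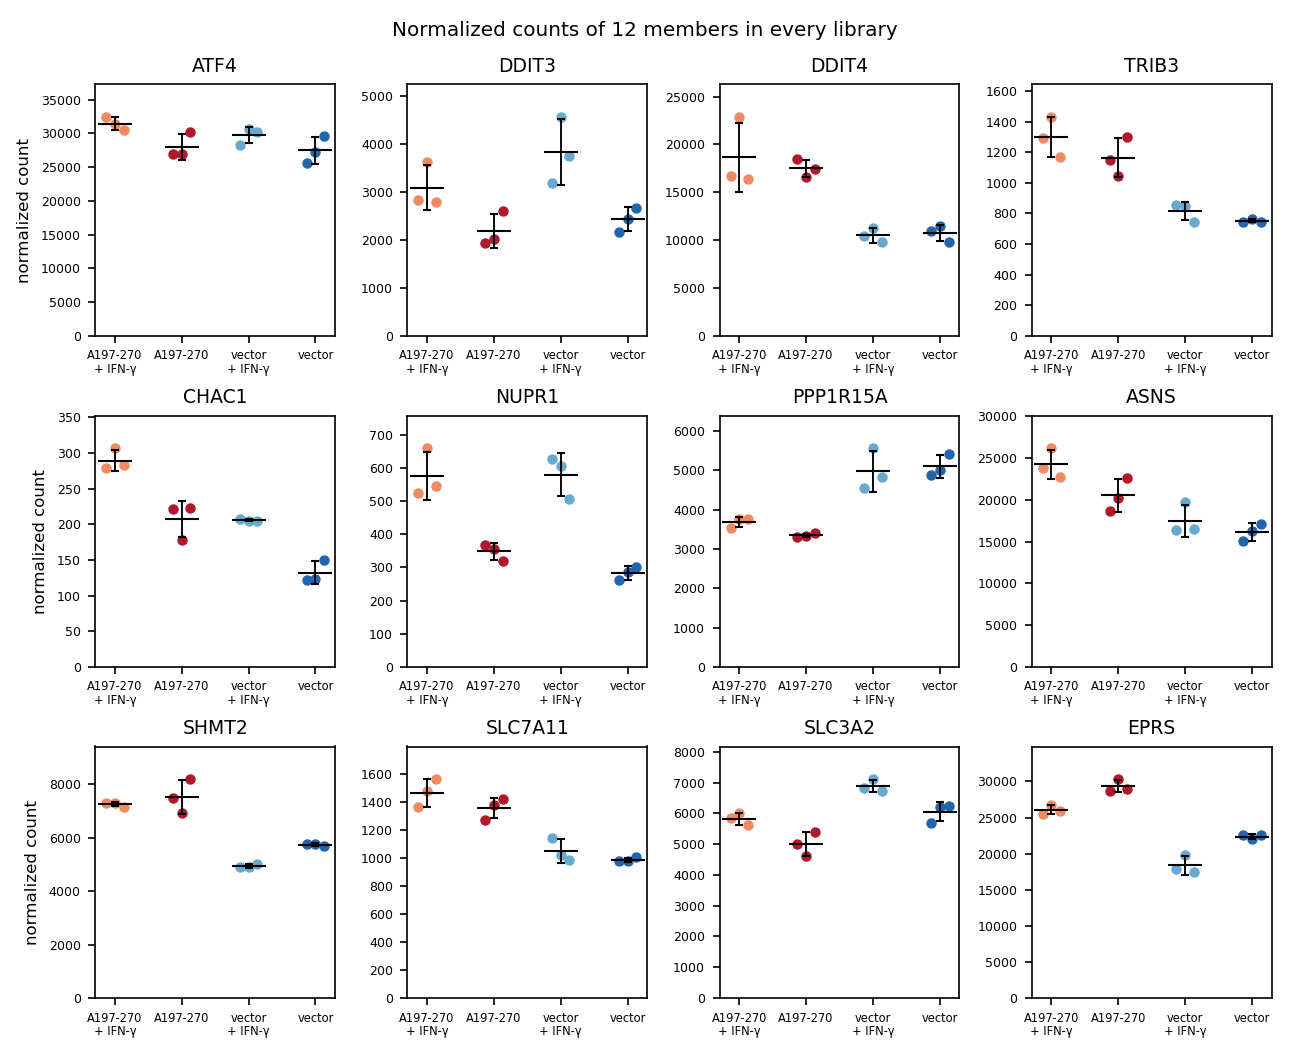
Normalized counts (linear axes from 0) of 12 members in each of the 12 libraries; points are libraries, horizontal bars the group mean and vertical bars the SD (n = 3 each), with the groups A197-270 with IFN-gamma, A197-270, vector with IFN-gamma and vector from left to right. DDIT4, TRIB3, SLC7A11, SHMT2 and EPRS stand higher in every A197-270 library than in every vector library, PPP1R15A stands lower, and NUPR1 is higher in every library with IFN-gamma than in every library without it.

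The first question was whether A197-270 changed the response genes relative to vector, asked separately without and with IFN-gamma. Without IFN-gamma, 16 members rose, 2 fell and 24 were not called (limma, adjusted p under 0.05 over all 14049 genes, here and throughout); among all tested genes 12.5% rose and 12.6% fell, 25.1% in all. The groups did not overlap for 21 members that were higher and 2 that were lower, against 19.7% and 20.1% of all tested genes. The members' median log2 difference was 0.17 and 36 of the 42 were positive, beside a median of -0.00078 over all tested genes. With IFN-gamma in both groups, 22 members rose, 2 fell and 18 were not called, where 18.6% of all tested genes rose and 16.2% fell, 34.8% in all. Here 26 members were higher and 2 lower without overlap, against 23.5% and 22.9% of all tested genes. The median was then 0.14 with 33 of 42 positive, beside -0.0050 over all tested genes. The rises were small: no called member differed by more than 0.81 on the log2 scale. Between these comparisons, which share no library, 14 members rose in both and 2 fell in both (PPP1R15A and SLC3A2). Another 8 were called higher with IFN-gamma but not without it, 2 the other way, 16 in neither and 0 in opposite directions. No such cross-count over all tested genes is given, so this agreement is not read as particular to the members. Fewer rises and more falls were called with IFN-gamma when the libraries were scaled to equal totals (15 and 4) or by quantiles (18 and 5), and 4 falls were called without replicate 11 of A197-270 with IFN-gamma. Scaling to equal totals also turned the split over all tested genes, to 1161 higher and 2741 lower without IFN-gamma and 1512 higher and 4170 lower with it. Under that scaling 32 of the 42 members were positive without IFN-gamma and 27 with it, with medians of 0.12 and 0.06. The medians over all tested genes were then -0.050 and -0.093.

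**Figure D2:**
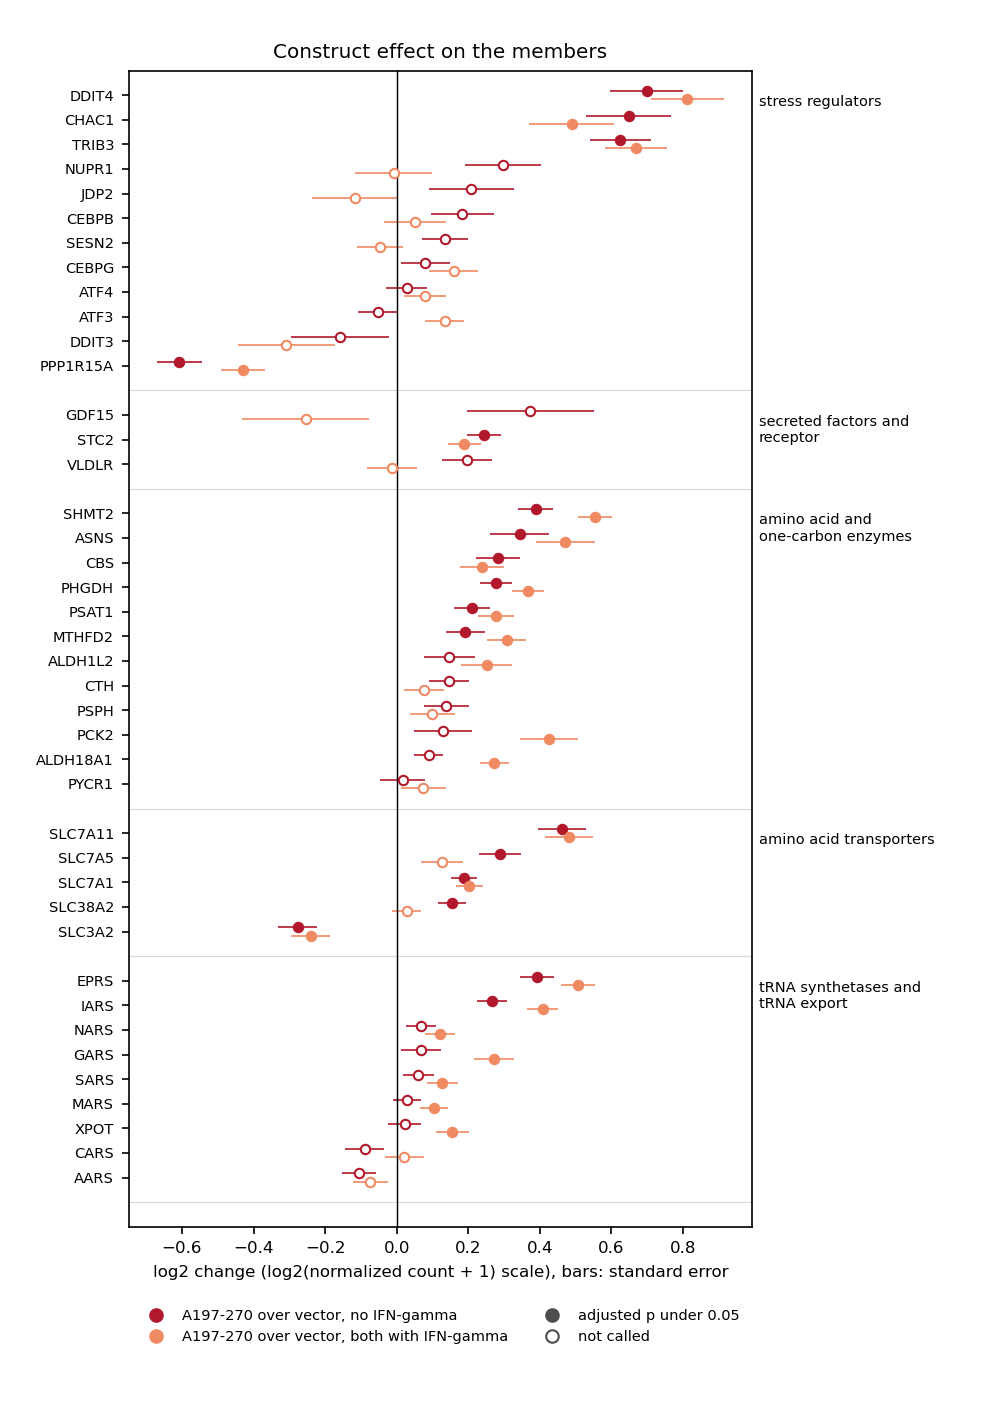
Log2 difference, A197-270 over vector, of 41 members by role, with the SE as horizontal bars; dark points compare the groups without IFN-gamma and light points the groups with it, and filled points passed the adjusted p of 0.05. FGF21 is not drawn because of its wide error. All 12 enzymes lie to the right of 0 in both comparisons, while PPP1R15A and SLC3A2 lie to its left.

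Among the 12 stress regulators, the construct raised the same 3 genes with and without IFN-gamma, DDIT4, TRIB3 and CHAC1, lowered PPP1R15A in both, and left 8 uncalled in each, ATF4 and DDIT3 among them. The class median was 0.07 with IFN-gamma and 0.16 without it on the log2 scale. Over all tested genes 18.6% rose and 16.2% fell with IFN-gamma, and 12.5% and 12.6% without it. The construct counts of the other classes below stand beside these same shares. With IFN-gamma the regulators were called about as often as all tested genes (34.8% in either direction). Their count is therefore not read as particular to them.

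DDIT4 (chr10:72273920-72276036; hg38 coordinates here and below, gene spans from GENCODE 29) encodes REDD1, which restrains the growth kinase complex mTORC1. It stood at 18433, 16635 and 17410.2 normalized counts in A197-270 cells, against 11008, 11503 and 9863 in vector cells, a log2 difference of 0.70 ± 0.10 (SE; n = 3 each; adjusted p 0.000219). With IFN-gamma it stood at 16755, 22842 and 16373 normalized counts in A197-270 cells and 10478, 11307 and 9762 in vector cells, a log2 difference of 0.81 ± 0.10 (adjusted p 5.02e-05). Every A197-270 library was above every vector library, and replicate 11 of A197-270 with IFN-gamma was the highest of all. TRIB3 (chr20:362835-397559), a pseudokinase that is induced by ATF4 and restrains it, gave 1148, 1044 and 1298 normalized counts in A197-270 cells, against 745, 762 and 745 in vector cells, and the log2 difference was 0.63 ± 0.09 (adjusted p 0.000136). With IFN-gamma the levels were 1295, 1428 and 1169 normalized counts in A197-270 cells and 852, 847 and 745 in vector cells, with a log2 difference of 0.67 ± 0.09 (adjusted p 5.93e-05). Here too the groups did not overlap.

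CHAC1 (chr15:40952962-40956519) encodes an enzyme that breaks down glutathione and is a classic ATF4 target. At a low level, it had 221, 179 and 223 normalized counts in A197-270 cells, against 122, 124 and 150.5 in vector cells (log2 difference 0.65 ± 0.12, adjusted p 0.00124). In the presence of IFN-gamma it had 279, 307 and 282 normalized counts in A197-270 cells and 208, 204 and 205 in vector cells (log2 difference 0.49 ± 0.12, adjusted p 0.00596). The A197-270 groups lay above their vector groups without overlap, and the vector group with IFN-gamma lay within the range of A197-270 alone. CHAC1 was the only member called higher in all 4 comparisons of 2 groups. Its RefSeq promoter window (GRCh38.p14) held the C/EBP-ATF response element TGATGNAAN on the reverse strand, shown in capitals with its flanks because this is the best known binding site of ATF4.
CHAC1, chr15:40953251-40953279, + strand: ctcccctgccGTTGCATCActcctgccag

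PPP1R15A (chr19:48872392-48876057) encodes GADD34, the stress-induced subunit that directs protein phosphatase 1 to eIF2 and so ends the response. Of the 12 regulators it was the one that fell. Its level was 3303, 3342 and 3395 normalized counts in A197-270 cells, against 4872, 5012 and 5426 in vector cells, a log2 difference of -0.61 ± 0.06 (adjusted p 1.02e-05). With IFN-gamma it was 3529, 3765 and 3764 normalized counts in A197-270 cells and 4558, 5562 and 4821 in vector cells, a log2 difference of -0.43 ± 0.06 (adjusted p 0.000164). All 6 A197-270 libraries were below all 6 vector libraries. The promoter window of PPP1R15A held no TGATGNAAN match and was the only one of the matched members to hold the cyclic AMP response element TGACGTCA, in capitals here.
PPP1R15A, chr19:48872343-48872390, + strand: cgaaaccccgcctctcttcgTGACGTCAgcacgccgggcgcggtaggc

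ATF4 (chr22:39519695-39522685) had overlapping levels: 26873, 26892 and 30196 normalized counts in A197-270 cells, against 25614, 27189 and 29571 in vector cells, a log2 difference of 0.03 ± 0.06 (adjusted p 0.776). With IFN-gamma it had 32375, 31358 and 30514 normalized counts in A197-270 cells and 28332, 30658 and 30210.3 in vector cells, a log2 difference of 0.08 ± 0.06 (adjusted p 0.31). No change of ATF4 mRNA was therefore called, although quantile scaling gave it a fall of 0.21 with IFN-gamma (adjusted p 0.00325). DDIT3 (chr12:57516588-57521737), the pro-apoptotic factor CHOP, had 1935, 2024 and 2592 normalized counts in A197-270 cells, against 2172, 2432 and 2671 in vector cells (log2 difference -0.16 ± 0.14, adjusted p 0.437). In cells given IFN-gamma it had 2826, 3623 and 2794 normalized counts in A197-270 cells and 3184, 4548 and 3749 in vector cells (log2 difference -0.31 ± 0.14, adjusted p 0.0946). The DDIT3 groups overlapped in both comparisons, and the negative difference with IFN-gamma was called without replicate 7 of vector with IFN-gamma (-0.43, adjusted p 0.0311), without replicate 11 of A197-270 with IFN-gamma (-0.43, adjusted p 0.0347) and under equal totals (-0.40, adjusted p 0.025). DDIT3 shares exon bases with MARS on the opposite strand, and use of strand in counting is not stated. ATF3, a stress-induced repressor and partner of ATF4, differed by -0.05 ± 0.05 without IFN-gamma (adjusted p 0.527) and 0.13 ± 0.05 with it (adjusted p 0.0735). Under quantile scaling the difference without IFN-gamma was a called fall (-0.15, adjusted p 0.0187). The difference with IFN-gamma passed without replicate 8 of vector with IFN-gamma (0.17, adjusted p 0.0423), without replicate 12 of A197-270 with IFN-gamma (0.19, adjusted p 0.0198) and by DESeq2 (0.13, adjusted p 0.0313), and under quantile scaling it was called in the other direction (-0.16, adjusted p 0.0104).

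The remaining regulators were not called for the construct. NUPR1, JDP2, CEBPB and SESN2, a stress-induced inhibitor of mTORC1, had log2 differences of -0.01, -0.12, 0.05 and -0.05 with IFN-gamma and of 0.30, 0.21, 0.18 and 0.14 without it. CEBPG, a C/EBP partner of ATF4, had 0.16 with IFN-gamma and 0.08 without it. Leaving out replicate 8 of vector with IFN-gamma called CEBPG (0.21, adjusted p 0.0391) with IFN-gamma, and leaving out replicate 3 of vector called JDP2 (0.36, adjusted p 0.0223) and SESN2 (0.21, adjusted p 0.0271) without it. Among the secreted factors and receptor, STC2 (chr5:173314713-173329503), a secreted glycoprotein of the stanniocalcin family, was the member that rose in both comparisons. STC2 had 7893, 7539.9 and 7773 normalized counts in A197-270 cells, against 6394, 6616 and 6587 in vector cells (log2 difference 0.24 ± 0.05, adjusted p 0.00169). When IFN-gamma was added it had 7947, 8814 and 7861 normalized counts in A197-270 cells and 7115, 7549 and 6923 in vector cells (log2 difference 0.19 ± 0.05, adjusted p 0.00649). These groups did not overlap, although the call with IFN-gamma was lost under equal totals (adjusted p 0.0914). GDF15, FGF21 and the lipoprotein receptor VLDLR were not called in either comparison. FGF21 was too low to measure well: it had 31.1, 24.1 and 26.1 normalized counts in A197-270 cells and 17.5, 23.8 and 0 in vector cells, both with IFN-gamma, and the log2 difference was 1.86 ± 0.88. It was called without replicate 8 of vector with IFN-gamma (adjusted p 0.0363), VLDLR without replicate 3 of vector (0.28, adjusted p 0.00644) and GDF15 without replicate 11 of A197-270 with IFN-gamma (-0.51, adjusted p 0.0101).

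The enzymes moved most evenly. With the deposited scaling, all 12 had positive log2 differences in both construct comparisons. Of these, 9 rose with IFN-gamma and 6 without it, 0 fell, and the class medians were 0.27 and 0.17 on the log2 scale. The rises called in both comparisons covered serine synthesis (PHGDH, PSAT1), the mitochondrial one-carbon pathway (SHMT2, MTHFD2), asparagine synthesis (ASNS) and transsulfuration (CBS). PCK2 (mitochondrial PEP carboxykinase), ALDH18A1 (proline synthesis) and ALDH1L2 (mitochondrial formyl-tetrahydrofolate oxidation) were called only with IFN-gamma. The difference between the comparisons, tested below as an interaction, was not called for these genes (limma adjusted p 0.338, 0.218 and 0.711). The phosphatase PSPH that completes serine synthesis, the cysteine-forming lyase CTH and the proline enzyme PYCR1 were not called, with log2 differences of 0.10, 0.08 and 0.07 with IFN-gamma and 0.14, 0.15 and 0.02 without it. In the comparison without IFN-gamma, CTH was called without replicate 1 of vector or replicate 4 of A197-270 (adjusted p 0.0482 and 0.0496) and PSPH without replicate 5 of A197-270 (adjusted p 0.0478).

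SHMT2 (chr12:57229327-57234935), the mitochondrial serine hydroxymethyltransferase, differed most. It had 7484, 6914 and 8192 normalized counts in A197-270 cells, against 5755, 5783 and 5678 in vector cells (log2 difference 0.39 ± 0.05, adjusted p 5.59e-05). With IFN-gamma it had 7299, 7318 and 7161 normalized counts in A197-270 cells and 4918, 4898 and 5012 in vector cells (log2 difference 0.55 ± 0.05, adjusted p 2.63e-06). The groups were well apart, and the vector libraries with IFN-gamma were the lowest of the 12. MTHFD2 (chr2:74198562-74217565), the next enzyme of that pathway, had 17922, 18427 and 19250.0 normalized counts in A197-270 cells, against 15347, 16339 and 17009 in vector cells (log2 difference 0.19 ± 0.05, adjusted p 0.0192). Its values with IFN-gamma were 21723, 21919 and 20044 normalized counts in A197-270 cells and 16299.7, 18465 and 16712 in vector cells (log2 difference 0.31 ± 0.05, adjusted p 0.000704). The MTHFD2 groups did not overlap, but the call without IFN-gamma was lost without replicate 1 of vector (adjusted p 0.0764) and without replicate 6 of A197-270 (adjusted p 0.0773). MTHFD2 shares exon bases with SLC4A5 on the opposite strand, and SHMT2 shares a few with NDUFA4L2.

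ASNS (chr7:97852118-97872542), asparagine synthetase, is the textbook amino acid response gene. Its level was 18728, 20214 and 22674 normalized counts in A197-270 cells, against 15088, 16244 and 17141 in vector cells, a log2 difference of 0.34 ± 0.08 (adjusted p 0.00728). With IFN-gamma its level was 23808, 26177 and 22725 normalized counts in A197-270 cells and 16366, 19729 and 16469 in vector cells, a log2 difference of 0.47 ± 0.08 (adjusted p 0.000621). In each comparison the lowest A197-270 library was above the highest vector library. Its promoter window holds the response element in the forward direction of the gene, in capitals below.
ASNS, chr7:97872458-97872486, - strand: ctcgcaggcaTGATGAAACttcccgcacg
PHGDH and PSAT1, the first enzymes of serine synthesis, rose by 0.37 and 0.28 with IFN-gamma and by 0.28 and 0.21 without it on the log2 scale. CBS rose by 0.24 and 0.28, and it has a near-identical copy, CBSL, so the split of reads between them is uncertain. ALDH18A1 (chr10:95605929-95656706) rose by 0.27 ± 0.04 with IFN-gamma (adjusted p 0.000218), at 10711, 10718 and 10812 normalized counts in A197-270 cells, against 8681, 9454 and 8576 in vector cells. Without IFN-gamma it had 10683, 10716 and 11251 normalized counts in A197-270 cells and 9905, 10407 and 10382 in vector cells, a difference of 0.09 ± 0.04 that was not called (adjusted p 0.134). PCK2 rose by 0.43 ± 0.08 with IFN-gamma (adjusted p 0.00113) and differed by 0.13 ± 0.08 without it (adjusted p 0.269). ALDH1L2 rose by 0.25 ± 0.07 with IFN-gamma (adjusted p 0.0139), a call that was lost under equal totals and without replicate 9 of vector with IFN-gamma or replicate 11 of A197-270 with IFN-gamma (adjusted p 0.0718 to 0.0911); without IFN-gamma it differed by 0.15 and was called without replicate 4 of A197-270 (adjusted p 0.0481).

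The amino acid transporters split into light chains and carriers that rose and a heavy chain that fell. Without IFN-gamma 4 of the 5 rose and 1 fell; with it 2 rose and 1 fell. SLC7A11 (chr4:138164097-138242349), the light chain of the cystine importer xCT, had 1271, 1375 and 1416 normalized counts in A197-270 cells, against 973, 974 and 1002 in vector cells (log2 difference 0.46 ± 0.07, adjusted p 0.000214). Among cells with IFN-gamma it had 1359, 1474 and 1559 normalized counts in A197-270 cells and 1144, 1019 and 984 in vector cells (log2 difference 0.48 ± 0.07, adjusted p 0.000118). The SLC7A11 groups did not overlap. SLC3A2 (chr11:62856102-62888875) encodes the heavy chain CD98hc, with which SLC7A11 and SLC7A5 both pair to reach the cell surface, and it moved the other way. It had 5008, 4609 and 5389 normalized counts in A197-270 cells, against 5693, 6223 and 6249 in vector cells (log2 difference -0.28 ± 0.05, adjusted p 0.00208). With IFN-gamma it had 5866, 6004 and 5622 normalized counts in A197-270 cells and 6828, 7111 and 6727 in vector cells (log2 difference -0.24 ± 0.05, adjusted p 0.00387). Its A197-270 libraries lay below the vector libraries of the same cytokine state without overlap.

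SLC7A5 (chr16:87830023-87869488), the light chain LAT1 of the large neutral amino acid exchanger, had 5606, 5152 and 6238 normalized counts in A197-270 cells, against 4652, 4423 and 4810.2 in vector cells (log2 difference 0.29 ± 0.06, adjusted p 0.00246). In cells given IFN-gamma it had 5571, 5743 and 6017 normalized counts in A197-270 cells and 5387, 5191 and 5283 in vector cells, and that difference of 0.13 ± 0.06 was not called (adjusted p 0.105). The groups did not overlap in either case. SLC38A2 (chr12:46358189-46372867), the sodium-coupled neutral amino acid carrier SNAT2, had 13864, 13356 and 13532 normalized counts in A197-270 cells, against 12215, 11852 and 12550.3 in vector cells (log2 difference 0.15 ± 0.04, adjusted p 0.0116). That call was lost under equal totals, under quantile scaling, without replicate 2 of vector (adjusted p 0.0606) and without replicate 4 of A197-270 (adjusted p 0.0516). With IFN-gamma SLC38A2 had 12558, 11779.6 and 11742 normalized counts in A197-270 cells and 12136, 11318 and 11944 in vector cells, which overlapped (log2 difference 0.03 ± 0.04). SLC7A1, the cationic amino acid carrier CAT1, rose by 0.20 ± 0.04 with IFN-gamma (adjusted p 0.000857) and 0.19 ± 0.04 without it (adjusted p 0.00203).

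Of the 9 genes of tRNA charging and export, 7 rose with the construct in the presence of IFN-gamma and 2 without it, and 0 fell. EPRS and IARS rose in both comparisons. EPRS (chr1:219968601-220046658), the synthetase that charges tRNA with glutamate and with proline, had 28686, 30302 and 29015 normalized counts in A197-270 cells, against 22557, 21973 and 22546 in vector cells (log2 difference 0.39 ± 0.05, adjusted p 4.21e-05). When IFN-gamma was added it had 25547, 26748 and 25859 normalized counts in A197-270 cells and 17827, 19862 and 17385 in vector cells (log2 difference 0.51 ± 0.05, adjusted p 4.16e-06). IARS (chr9:92210207-92293756), the isoleucyl enzyme, had 31744, 33192 and 34624 normalized counts in A197-270 cells, against 27981, 27807 and 26959 in vector cells (log2 difference 0.27 ± 0.04, adjusted p 0.000441). Its levels with IFN-gamma were 33168, 34176 and 32433 normalized counts in A197-270 cells and 25392, 25810.3 and 24022 in vector cells (log2 difference 0.41 ± 0.04, adjusted p 1.03e-05). For both genes every A197-270 library was above every vector library. The IARS promoter window carries the response element just ahead of the start site, again in capitals.
IARS, chr9:92293698-92293721, - strand: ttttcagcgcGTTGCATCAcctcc
GARS, the glycyl enzyme, rose by 0.27 ± 0.06 with IFN-gamma (adjusted p 0.00207) and differed by 0.07 ± 0.06 without it (adjusted p 0.419). XPOT, which exports tRNA from the nucleus, SARS, NARS and MARS rose with IFN-gamma by only 0.16, 0.13, 0.12 and 0.11 on the log2 scale, and of the 15 alternatives these calls were lost under 4, 8, 10 and 11. They were lost under equal totals and quantile scaling and without replicates 9 and 11 in each case, without replicate 7 for SARS and NARS, without replicate 8 for MARS, without replicate 10 for NARS and MARS, and without replicate 12 for SARS, NARS and MARS (adjusted p 0.0518 to 0.794). Leaving out replicate 9 of vector with IFN-gamma, or replicate 11 of A197-270 with IFN-gamma, left 17 rises among the 42 members in place of 22. AARS (chr16:70252295-70289543) and CARS (chr11:3000922-3057613) were not called for the construct. AARS differed by -0.07 with IFN-gamma and -0.11 without it, negative values that were called under equal totals and under quantile scaling (adjusted p 0.00035 to 0.0096).

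The second question was what IFN-gamma changed in cells with the construct and in cells with vector. In A197-270 cells, 8 members rose, 3 fell and 31 were not called with IFN-gamma, where 4.19% of all tested genes rose and 3% fell, 7.19% in all. Without overlap between groups, 17 members were higher and 5 lower, against 12.1% and 13% of all tested genes. In vector cells, 10 rose, 4 fell and 28 were not called, where 7.32% of all tested genes rose and 9.79% fell, 17.1% in all. Without overlap, 11 members were higher and 5 lower there, against 16.3% and 19.2% of all tested genes. Of the 42, 6 rose in both arms (NUPR1, DDIT3, CHAC1, SLC3A2, CARS and AARS), 1 fell in both (EPRS), 24 were called in neither and 0 in opposite directions. Here too no such cross-count over all tested genes is given, so the agreement is not read as particular to the members. The members' median log2 difference was 0.10 in A197-270 cells and 0.03 in vector cells, beside -0.0058 and -0.0092 over all tested genes.

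**Figure D3:**
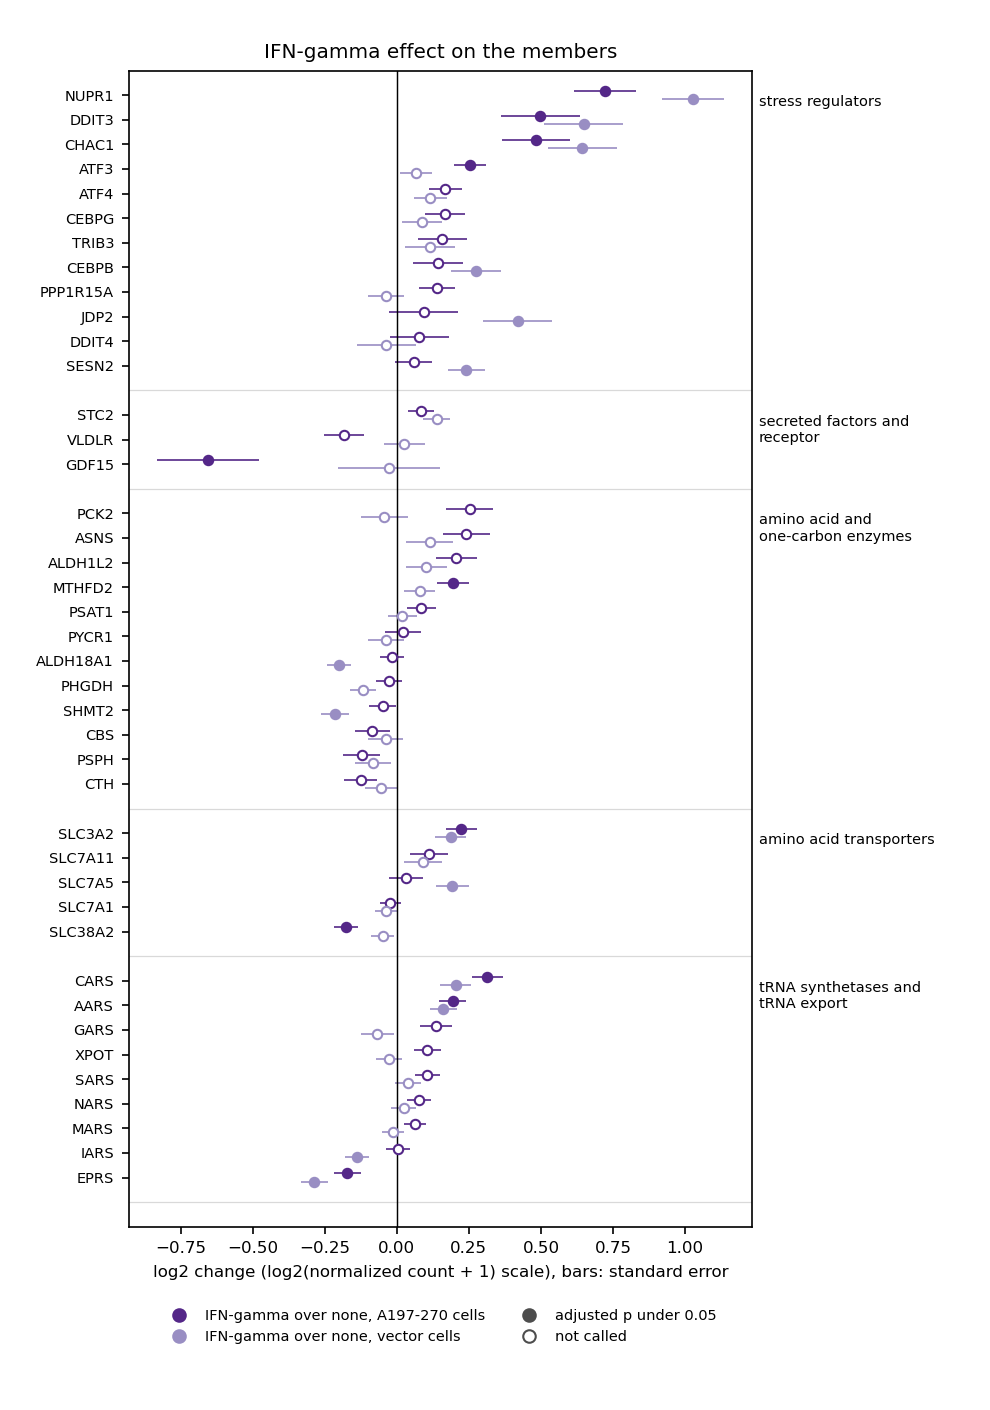
Log2 difference, IFN-gamma over none, of 41 members by role, with the SE as horizontal bars; dark points are A197-270 cells and light points vector cells, and filled points passed the adjusted p of 0.05 (FGF21 is not drawn). NUPR1, DDIT3 and CHAC1 lie farthest to the right in both arms, and GDF15 farthest to the left in A197-270 cells.

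Most of these calls were lost when 1 library or another was left out, though few depended on every library. Some were also lost under other settings: with no filter, DDIT3, GDF15, MTHFD2 and EPRS in A197-270 cells and CEBPB and IARS in vector cells. Only NUPR1 and CARS in A197-270 cells, and NUPR1, DDIT3, CHAC1, SHMT2, ALDH18A1 and EPRS in vector cells, were called under all 15 alternatives. In A197-270 cells the count of rises was 4 without replicate 4 and 3 without replicate 5 of A197-270, and 3 without replicate 10 and 2 without replicate 11 of A197-270 with IFN-gamma. The count of falls there was 0 without replicate 4 of A197-270 or replicate 12 of A197-270 with IFN-gamma, and 1 without any of the other libraries of those groups, replicates 5, 6, 10 and 11. In vector cells the count of rises was 5 without replicate 1 and 3 without replicate 2 of vector, and 5, 4 and 4 without replicates 7, 8 and 9 of vector with IFN-gamma.

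Of the 12 stress regulators, 4 rose with IFN-gamma in A197-270 cells and 6 in vector cells, and 0 fell in either. Among all tested genes 4.19% rose and 3% fell in A197-270 cells, and 7.32% rose and 9.79% fell in vector cells. NUPR1 (chr16:28532708-28539174) had the largest called rise among the members in both arms. It had 524, 659 and 546 normalized counts in A197-270 cells with IFN-gamma, against 369, 355 and 320.5 without it, a log2 difference of 0.72 ± 0.11 (adjusted p 0.000509). In vector cells it had 626, 607 and 505 normalized counts with IFN-gamma and 261, 287 and 301 without it, a log2 difference of 1.03 ± 0.11 (adjusted p 1.95e-05). All 6 libraries with IFN-gamma were above all 6 without it. DDIT3 rose by 0.50 ± 0.14 in A197-270 cells (adjusted p 0.0402) and by 0.65 ± 0.14 in vector cells (adjusted p 0.00542); in A197-270 cells the call was lost without replicate 4 or 5 of A197-270 and without replicate 10 or 11 of A197-270 with IFN-gamma (adjusted p 0.059 to 0.171). CHAC1 rose by 0.48 ± 0.12 in A197-270 cells (adjusted p 0.0236) and 0.64 ± 0.12 in vector cells (adjusted p 0.00234), the first of which was lost without replicate 5 of A197-270 and without replicate 10, 11 or 12 of A197-270 with IFN-gamma (adjusted p 0.0506 to 0.0927). From the values given above, each of these groups with IFN-gamma lay above its group without it for both genes.

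ATF4 differed by 0.17 ± 0.06 in A197-270 cells (adjusted p 0.102) and 0.12 ± 0.06 in vector cells (adjusted p 0.188), neither of them called. The vector difference depended on the scaling: it was called under quantile scaling (0.30, adjusted p 0.000797) and equal totals (0.16, adjusted p 0.0433), and DESeq2 called the one in A197-270 cells (0.17, adjusted p 0.0299). The A197-270 groups did not overlap for ATF4, and without replicate 6 of A197-270 the differences of ATF4 (0.22, adjusted p 0.0422), ASNS (0.31, adjusted p 0.0481) and PCK2 (0.32, adjusted p 0.0403) were called in those cells. PPP1R15A differed by 0.14 ± 0.06 and -0.04 ± 0.06 and ASNS by 0.24 ± 0.08 and 0.11 ± 0.08 in A197-270 and vector cells, again with no call. ATF3 rose in A197-270 cells, by 0.25 ± 0.05 (adjusted p 0.0109; lost without replicate 10 or 11 of A197-270 with IFN-gamma, adjusted p 0.0503 and 0.0585). In vector cells ATF3 differed by 0.07 ± 0.05 (adjusted p 0.44), but under quantile scaling it rose there too, by 0.23 (adjusted p 0.00213). CEBPB, JDP2 and SESN2 rose in vector cells by 0.27, 0.42 and 0.24 on the log2 scale. These calls were lost without replicate 2 for all 3 genes, without replicate 1 for JDP2 and SESN2, without replicates 7 and 8 for CEBPB and JDP2, and without replicate 9 for all 3 (adjusted p 0.0554 to 0.184). GDF15 (chr19:18374731-18389176), a circulating stress cytokine, fell with IFN-gamma in A197-270 cells, where it had 233, 383 and 212 normalized counts with IFN-gamma, against 452, 411 and 398 without it (log2 difference -0.65 ± 0.18, adjusted p 0.0388). In vector cells it had 359, 335 and 267 normalized counts with IFN-gamma and 329.9, 348 and 296 without it (log2 difference -0.03 ± 0.18, adjusted p 0.943). The A197-270 groups did not overlap, the vector groups did, and the call was lost without any of replicates 4, 5, 6, 10 and 12 (adjusted p 0.0752 to 0.143).

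Of the 12 enzymes, 1 rose with IFN-gamma in A197-270 cells and 2 fell in vector cells. Of the 5 transporters, 1 rose and 1 fell in A197-270 cells and 2 rose in vector cells. Of the 9 genes of tRNA charging and export, 2 rose and 1 fell in A197-270 cells and 2 rose and 2 fell in vector cells. Among all tested genes 4.19% rose and 3% fell in A197-270 cells, and 7.32% rose and 9.79% fell in vector cells. In classes this small, counts of 1 or 2 genes are not read as a result about the class. SHMT2 fell by 0.22 in vector cells (log2 scale, adjusted p 0.00795) and ALDH18A1 by 0.20 (adjusted p 0.00461); in A197-270 cells the same genes differed by -0.05 and -0.02 and were not called. MTHFD2 rose by 0.20 ± 0.05 in A197-270 cells (adjusted p 0.0447), a call lost without any of replicates 4, 5, 6, 10 and 11 (adjusted p 0.0549 to 0.175). SLC3A2 rose in both arms, by 0.22 ± 0.05 in A197-270 cells (adjusted p 0.0225) and 0.19 ± 0.05 in vector cells (adjusted p 0.0303). SLC38A2 fell by 0.18 in A197-270 cells (adjusted p 0.0147), and SLC7A5 rose by 0.19 in vector cells (adjusted p 0.0357). In A197-270 cells the SLC3A2 call was lost without replicate 4, 5, 10 or 11 and the SLC38A2 call without replicate 4, 11 or 12 (adjusted p 0.0513 to 0.0906). In vector cells the SLC3A2 and SLC7A5 calls were lost without any of replicates 1, 2, 7, 8 and 9 (adjusted p 0.0539 to 0.141).

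CARS, the cysteinyl enzyme, had 3468, 3889.5 and 3587 normalized counts in A197-270 cells with IFN-gamma, against 2739, 2982 and 3085 without it (log2 difference 0.31 ± 0.05, adjusted p 0.00216). In vector cells CARS had 3609, 3735 and 3436 normalized counts with IFN-gamma and 3167, 2998 and 3194 without it (log2 difference 0.20 ± 0.05, adjusted p 0.0202). AARS had 22129, 22693 and 23178 normalized counts in A197-270 cells with IFN-gamma, against 19290.4, 19446 and 20736 without it (log2 difference 0.19 ± 0.05, adjusted p 0.0236). In vector cells it had 22841, 25314 and 23445 normalized counts with IFN-gamma and 20404, 21254 and 22360.0 without it (log2 difference 0.16 ± 0.05, adjusted p 0.0324). Both genes were higher with IFN-gamma with no overlap between groups. In vector cells the CARS call was lost without replicate 2, 7 or 8 (adjusted p 0.0549 to 0.091) and the AARS call without replicate 1, 2, 8 or 9 (adjusted p 0.0681 to 0.135); in A197-270 cells the AARS call was lost without replicate 4, 5, 11 or 12 (adjusted p 0.07 to 0.108). The response element of AARS lies upstream of its start site on the reverse strand and is shown because its letters are those of the elements of IARS and CHAC1 above.
AARS, chr16:70289676-70289704, - strand: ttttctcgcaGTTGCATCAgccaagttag
EPRS and IARS went the other way. EPRS fell by 0.29 in vector cells (adjusted p 0.00101) and by 0.17 in A197-270 cells (adjusted p 0.041; lost without each of replicates 4, 5, 6, 10, 11 and 12). IARS fell by 0.14 in vector cells (adjusted p 0.0389; lost under 9 of the 15 alternatives, among them without replicate 1, 2, 7 or 9) and differed by 0.00 in A197-270 cells.

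Whether the IFN-gamma difference itself depended on the construct was tested as an interaction. It was called for 0 of the 42 members by limma, against 0.897% of all tested genes, 0.819% called positive and 0.0783% called negative. After adjustment, edgeR and DESeq2 also called it for 0 members. The lowest adjusted p by limma was 0.218. The median SE of the interaction over the members was 0.082 on the log2 scale. All 9 genes of tRNA charging and export had positive estimates (median 0.11). So had 9 of the 12 enzymes (median 0.10) and 6 of the 12 regulators (median -0.04). Over all tested genes the median was 0.013. Some lists outside the members leaned the same way: 13 of 14 genes of the ATF6 and XBP1 branches were positive (median 0.14). Of 12 other cytosolic synthetases 11 were positive (median 0.10), and of 22 further genes linked to ATF4 13 were (median 0.02). Under equal totals 24 of the 42 members were positive, in place of 28, and the median over all tested genes was -0.026. Without replicate 11 of A197-270 with IFN-gamma, GDF15 was called (-0.89, adjusted p 0.0253).

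The machinery upstream of ATF4 was read from 18 genes for the eIF2 kinases, their regulators, eIF2 and its exchange factor. With the construct 4 rose and 1 fell in the presence of IFN-gamma, and 3 rose and 2 fell without it. The rises were near the shares of all tested genes (18.6% with IFN-gamma and 12.5% without it), and falls were no more frequent than among all tested genes (16.2% and 12.6%). EIF2AK2, the double-stranded RNA-activated kinase PKR and itself an interferon-induced gene, changed most. It had 6959.9, 7673 and 6631 normalized counts in A197-270 cells, against 29761, 28478 and 29152 in vector cells (log2 difference -2.04 ± 0.06, adjusted p 1.42e-12). With IFN-gamma it had 27125, 29022 and 27149 normalized counts in A197-270 cells and 28500.5, 29859.7 and 26349 in vector cells (log2 difference -0.02 ± 0.06, adjusted p 0.785). The A197-270 libraries without IFN-gamma were low, the other 9 lay between 26349 and 29859.7 normalized counts, and its interaction was 2.02 ± 0.08 (adjusted p 3.06e-10). The other kinases were not called for the construct: HRI (EIF2AK1), PERK (EIF2AK3) and GCN2 (EIF2AK4) differed by -0.11, -0.02 and 0.03 with IFN-gamma and by -0.12, 0.05 and -0.02 without it. GCN1, the activator of GCN2, rose by 0.29 with IFN-gamma and 0.24 without it (adjusted p 0.00017 and 0.0012). PPP1R15B, the constitutive counterpart of PPP1R15A, also fell, by 0.37 with IFN-gamma and 0.31 without it (adjusted p 0.000734 and 0.00331).

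Other lists were read against the 18.6% of all tested genes that rose and 16.2% that fell with the construct in the presence of IFN-gamma, and the 12.5% and 12.6% without it. Of 22 further genes linked to ATF4, 10 rose and 4 fell with the construct in the presence of IFN-gamma and 7 rose and 2 fell without it; BCAT1, a branched-chain amino acid transaminase, rose by 0.52 and 0.43 on the log2 scale. Of 14 chaperones and other genes of the ATF6 and XBP1 branches of the unfolded protein response, 5 rose with IFN-gamma and 2 without it, the second a share near that of all tested genes, and 0 fell. Of the 17 mitochondrial tRNA synthetases, 7 rose and 0 fell with IFN-gamma, and 5 rose and 1 fell without it. The 12 cytosolic synthetases that were not members also moved upward: 10 rose with IFN-gamma and 6 without it, and 0 fell, with log2 differences of 0.56 and 0.39 for QARS, the glutaminyl enzyme.

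EPRS, IARS and QARS belong to the multi-tRNA synthetase complex, and after these values were seen the 20 cytosolic synthetases were divided into the 8 of that complex and 12 outside it; no test was made of this division. In the complex, 8 of 8 rose with the construct in the presence of IFN-gamma and 6 of 8 without it, with median log2 differences of 0.38 and 0.22. Outside it, 8 of 12 rose with IFN-gamma and 2 of 12 without it, with medians of 0.12 and 0.06. With IFN-gamma against none, 0 of the 8 rose in either arm, while 5 fell in vector cells and 2 in A197-270 cells. Among all tested genes 9.79% fell and 7.32% rose in vector cells, and 3% fell and 4.19% rose in A197-270 cells. The fall was not particular to the complex: of the 17 mitochondrial synthetases, 5 fell and 0 rose in vector cells. In A197-270 cells 3 of those 17 fell and 1 rose. Of the 12 outside the complex, 3 rose in each arm, namely AARS, CARS and WARS, and 2 fell in vector cells. WARS, the tryptophanyl enzyme and a known interferon-gamma target, rose by 3.25 in A197-270 cells and 3.25 in vector cells on the log2 scale. Its group means were 46469 normalized counts with IFN-gamma and 4896 without it in A197-270 cells, and 42800.3 with IFN-gamma and 4488 without it in vector cells.

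**Figure D4:**
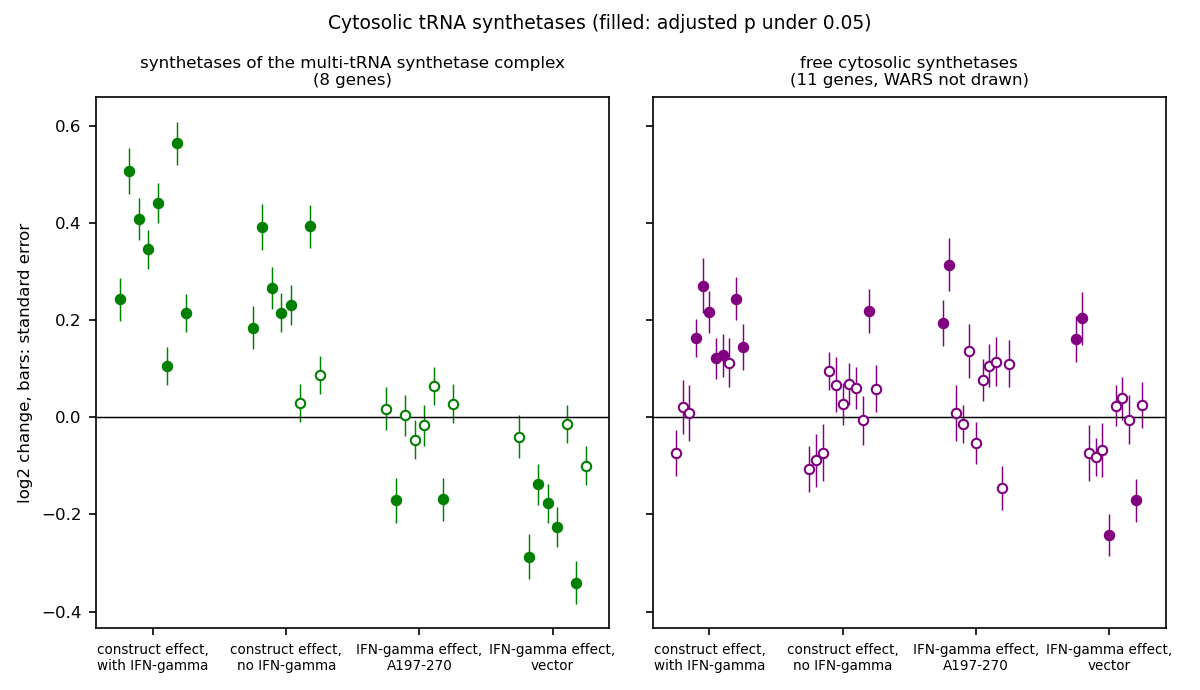
Log2 differences of cytosolic tRNA synthetases, 8 of the multi-tRNA synthetase complex on the left and 11 outside it on the right, for the construct with and without IFN-gamma and for IFN-gamma in A197-270 and vector cells; bars are the SE and filled points passed the adjusted p of 0.05. WARS is not drawn because its IFN-gamma difference of 3.25 in both arms lies off the scale; the complex members lie above 0 for the construct and mostly below 0 for IFN-gamma in vector cells.

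Promoter letters were compared with these calls as a description. RefSeq windows of 300 bases, from 250 before to 50 after the start site (GRCh38.p14), were found for 36 of the 42 members. TGATGNAAN, searched on both strands, occurred in 14 of the 36 (38.9%), against 4.45% of 27303 genes with such windows. The members were chosen as genes of the ATF4 programme, so this excess is no finding about them. The 27303 genes also go beyond the 19836 protein-coding genes from which the members come. Members had 53 windows and all genes 35114, so several starts per gene were counted. TGACGTCA occurred in 1 member (2.78%), against 2.25% of all genes; the searched strings do not overlap each other in these windows. With the construct and IFN-gamma, 7 of the 14 genes with the element and 12 of the 22 without a match rose, and without IFN-gamma 4 of 14 and 10 of 22. With IFN-gamma in A197-270 cells, 5 of 14 and 2 of 22 rose, and in vector cells 5 of 14 and 4 of 22. Rises with the construct occurred in genes with and without these letters in the window. A match or its lack in these windows says nothing of binding by ATF4.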

How the data were processed

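Poly(A)-selected RNA from 12 HEK293 libraries, 4 groups of 3, was analysed. The authors deposited 1 table of normalized counts for 19836 protein-coding genes, a signal made, as the values show, by dividing each library's read counts by 1 factor. Per the submitters' processing notes, HISAT2 2.1.0, StringTie 1.3.3b and DESeq2 1.22.1 were used with genome build hg38; their roles and the annotation release are not given in the sources used here. Dividing each column by its smallest value above 0 gave whole numbers for 100% of values (largest deviation 1.8e-09 reads), so reads could be recovered (31417431 to 70746868 per library). Depth limits the precision of low genes such as FGF21.

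Genes with a mean of at least 10 normalized counts (14049) entered 1 limma model (version 3.58.1, R 4.3.3) of 4 group means over all 12 libraries, fitted to log2(value + 1) with eBayes and its trend option, two-sided, with Benjamini-Hochberg adjustment over all tested genes and a threshold of 0.05. Fold changes on this scale understate those of low genes. Contrasts were A197-270 over vector with and without IFN-gamma, IFN-gamma over none in A197-270 and in vector cells, and their interaction. Alternatives were a pseudocount of 5, no filter, a minimum mean of 50, equal totals, TMM, quantile normalization, edgeR 4.0.16 (quasi-likelihood) and DESeq2 1.42.0 on recovered reads, only the 2 groups compared, and each library left out. The code was tested on simulated data, where 6.42% of calls for the construct without IFN-gamma and 4.24% of interaction calls were false. Of 1.5-fold changes, the smallest simulated, 80.6% and 64.2% were called. Most differences of the members were smaller than that, and how often such changes are called was not simulated.

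The members, roles and further lists were chosen with earlier results of these data known, so counts are read beside those of all genes and no list was tested. Per-library values are given for ATF4, DDIT3, ASNS, PPP1R15A and, for each role and comparison, the 2 called members with the largest change; other members appear by counts or log2 differences, and up to 4 called genes of a further list are named for each comparison. Members named beyond this rule with calls lost or gained, the other eIF2 kinases, GCN1, the per-library values of EIF2AK2 and the synthetase complex division were chosen after their values were seen. Of the 42 members, 39 had the same versioned identifier in GENCODE 29, which gave spans and merged exon lengths, and 6 share exon bases with another coding gene. Promoter sequences are from RefSeq (GRCh38.p14). The result for 1 marker of other cell types is not reported here.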

Additional observations from a re-analysis of the deposited data

How the results depend on the processing

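No paired analysis was possible because the labels give every sample its own number from 1 to 12. For A197-270 over vector without IFN-gamma, 14 of the 16 rises and 2 of the 2 falls among the members were called under all 15 alternatives, and with IFN-gamma 15 of 22 and 2 of 2; for IFN-gamma the numbers were 2 of 8 and 0 of 3 in A197-270 cells and 3 of 10 and 3 of 4 in vector cells. Pseudocount 5 changed no call among the members. Equal totals gave 4 member falls with IFN-gamma, and over all tested genes 1161 higher and 2741 lower for the construct alone, 1512 higher and 4170 lower for the construct with IFN-gamma, 830 lower for IFN-gamma in vector cells and 23 lower for the interaction. Quantile normalization gave 4 member falls for the construct alone and 5 with IFN-gamma, and reversed the sign of the uncalled ATF4 and ATF3 differences with IFN-gamma, to called falls (-0.21 and -0.16). Calls in vector cells also moved with the setting: STC2 with IFN-gamma, not called as reported, passed under equal totals, TMM, quantile scaling, edgeR, DESeq2 and a fit of the compared groups alone (adjusted p 0.0155 to 0.0499). For the construct, CBS with IFN-gamma was lost under equal totals (adjusted p 0.0991), and NUPR1 without it passed under quantile scaling and DESeq2 (adjusted p 0.0401 and 0.0472). Without a filter 1 member fell with IFN-gamma in A197-270 cells. DESeq2 called 219 genes higher and 60 lower in the interaction. The cause of these moves was not tested.

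With 1 library left out at a time, members called higher and lower ranged from 15 to 19 and stayed at 2 for the construct alone, and ranged from 17 to 24 and 2 to 4 with IFN-gamma. For IFN-gamma they ranged from 2 to 10 and 0 to 1 in A197-270 cells, and from 3 to 10 and 3 to 4 in vector cells. The interaction gave 0 higher and 0 to 1 lower. All genes ranged from 1319 to 1640 higher and 1268 to 1587 lower for the construct alone, 2073 to 2400 and 1622 to 2011 with IFN-gamma, 389 to 534 and 186 to 356 for IFN-gamma in A197-270 cells, 592 to 1157 and 801 to 1388 in vector cells, and 96 to 151 and 6 to 78 for the interaction, the 78 without replicate 3 of vector. Depth limits FGF21, whose SE of 0.88 on the log2 scale is wider than any difference called among the members except that of NUPR1.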
